A study of Mus musculus with 2 samples.

Results

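The genes described here are 8 bitter taste receptors (T2Rs) that lie close together on the proximal side of mouse chromosome 6: Tas2r137, Tas2r108, Tas2r138, Tas2r139, Tas2r144, Tas2r143, Tas2r135 and Tas2r126, given in their order along the chromosome. They were chosen by gene symbol as neighbours in the mouse annotation, and the choice was made with earlier results of these data known. They are 8 of the 35 T2Rs, of the 87 receptors and of the 96 assays on a custom TaqMan array card. Liver 1 (labelled HF1) and liver 2 (labelled M3) came from male mice of the inbred strain C57BL6 that were matched in age, and the labels give neither the age nor a treatment. Both livers form a single group, so n = 2 livers, no condition was compared with another, and the question was which receptors can be measured in whole liver RNA at all. Each assay has 4 wells in each liver. A well reports the cycle threshold (Ct), the PCR cycle at which its fluorescence crosses a set level, so a lower Ct stands for more template.

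Bitter taste receptors are G protein-coupled receptors that bind bitter, often toxic, compounds. In taste cells of the tongue they act through the G protein α-gustducin (Gnat3), phospholipase C and the channel Trpm5. The same receptors occur in tuft cells and other chemosensory cells of the gut and the airways. Most mouse T2Rs sit in a large cluster at the distal end of chromosome 6, where the family has expanded in rodents. The proximal genes include several with a single human counterpart: Tas2r137 corresponds to TAS2R3, Tas2r108 to TAS2R4, Tas2r138 to TAS2R38, Tas2r139 to TAS2R39, Tas2r144 to TAS2R40, Tas2r126 to TAS2R41 and Tas2r135 to TAS2R60. Tas2r108 is known to respond to denatonium, and the human counterpart of Tas2r138 is the receptor for phenylthiocarbamide.

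In the RefSeq annotation of GRCm38.p6 the 8 genes were not one unbroken run. No listed gene lay between Tas2r137 and Tas2r108, between Tas2r139 and Tas2r144, between Tas2r143 and Tas2r135, or between Tas2r135 and Tas2r126. Between Tas2r108 and Tas2r138 there were 4 listed genes, all protein-coding, and between Tas2r144 and Tas2r143 there were 10, of which 7 were protein-coding. The widest gap by gene count was the one from Tas2r138 to Tas2r139, with 91 listed genes, 26 of them protein-coding. By neighbourhood the group therefore consisted of 2 pairs, 1 lone gene (Tas2r138) and 1 run of 3 genes.

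Of the 8 proximal T2Rs, 6 had a Ct in at least 2 of 4 wells in both livers: Tas2r137, Tas2r108, Tas2r138, Tas2r143, Tas2r135 and Tas2r126. Over all receptors on the card, 15 of 87 met this rule (17.2%). Of the other 27 T2Rs, 0 met it, so the proximal group held all 6 T2Rs measured in both livers on this card. As the group was proposed with results of these data known, this contrast is a description. In liver 1 alone, 7 of the 8 had at least 2 wells, the seventh being Tas2r144, where the background was 35 of 87 receptors (40.2%) and 1 of the 27 other T2Rs (3.7%). With only a single well asked for in liver 1, the proximal genes stayed at 7 of 8, against 57 of all 87 receptors (65.5%) and 11 of the 27 other T2Rs (40.7%). The values describe whole liver, in which fewer cells of a type and less RNA per cell cannot be told apart.

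Counted by wells, the proximal genes gave a Ct in 26 of 32 wells of liver 1 (81.2%) and in 21 of 32 wells of liver 2 (65.6%). Over all 87 receptors it was 139 of 348 wells of liver 1 (39.9%) and 54 of 348 of liver 2 (15.5%). The other T2Rs gave a Ct in 12 of 108 wells of liver 1 (11.1%) and in 0 of 108 of liver 2. The levels differed as well: in liver 1 the median Ct of the wells was 32.8 for the proximal genes and 36.9 for the other T2Rs, whose wells all lay between 35.9 and 37.3. In liver 1 every well of the 6 genes measured in both livers was earlier than every well of the other T2Rs, and the exception among the proximal wells was 1 well of Tas2r144.

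**Figure D1:**
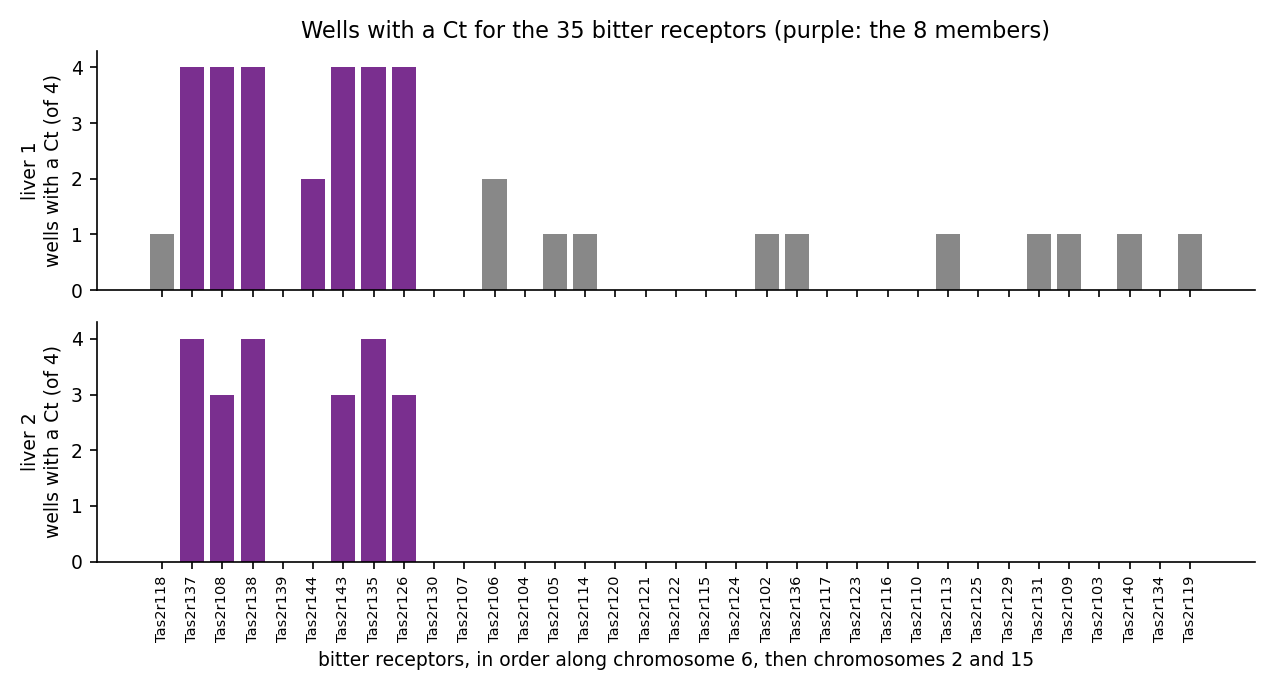
Number of wells with a Ct, of 4, for each of the 35 T2Rs in liver 1 (top) and liver 2 (bottom), in order along chromosome 6 and then chromosomes 2 and 15; purple bars are the 8 proximal genes. In liver 2 every bar is purple, with 6 of the 8 genes at 3 or 4 wells, and in liver 1 the grey bars of the other T2Rs reach at most 2 wells.

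Among the other T2Rs, 16 had no Ct in either liver and 10 had a single well in liver 1, with a median Ct of 37.0. Tas2r106 had 2 wells in liver 1, at 36.3 and 37.0, a mean of 36.6 ± 0.435 (SD between wells) and none in liver 2. Its mean was later than those of the 7 proximal genes with a Ct in liver 1. Of the 24 other T2Rs that follow the proximal genes on chromosome 6, 9 had any Ct in liver 1. The remaining 3 lie elsewhere, and of these Tas2r118, before the proximal genes, and Tas2r119, on chromosome 15, had 1 well each, while Tas2r134, on chromosome 2, had none.

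Because the genes are neighbours, the DNA upstream of each was set side by side. RefSeq (GRCm38.p6) gave a window of 300 bases for 8 of the 8 genes, with 250 bases before the annotated start and 50 bases from it. The annotated lengths of all 8 genes are multiples of 3 and 29 of the 31 T2R windows have ATG at the annotated start, so these windows surround the start codon and not a known transcription start. Of the study's full-length forward primers, which exist for 6 of the 8 genes, 5 were found whole at that start codon, and the exception was the primer of Tas2r135. The stretch TTTGCAT, the core of the octamer ATTTGCAT that POU-domain factors are known to bind, was present in 7 of the 8 windows. The sites are given as read on the strand of the gene, 5′ to 3′, with TTTGCAT in capitals and up to 12 bases on each side, because this word recurs in nearly all of the 8 windows. In Tas2r138 the window ends 1 base before the site, so its left side is cut.
Tas2r137, chr6:40491035-40491065, plus strand: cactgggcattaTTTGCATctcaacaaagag
Tas2r108, chr6:40493435-40493465, plus strand: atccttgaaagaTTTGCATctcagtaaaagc
Tas2r138, chr6:40613541-40613560, minus strand: tTTTGCATcatccaagaggt
Tas2r139, chr6:42140730-42140760, plus strand: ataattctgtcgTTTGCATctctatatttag
Tas2r144, chr6:42215160-42215190, plus strand: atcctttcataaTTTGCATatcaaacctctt
Tas2r135, chr6:42405375-42405405, plus strand: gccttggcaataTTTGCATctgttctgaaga
Tas2r126, chr6:42434330-42434360, plus strand: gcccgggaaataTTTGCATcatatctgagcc

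The 7 sites all read TTTGCAT on the strand of the gene, and 0 of them read it on the opposite strand. Their first base lay between 142 and 249 bases before the start codon, with a median of 191 bases. The base after the core was C in every site but that of Tas2r144. The word was sought on both strands, as TTTGCAT and as its reverse complement ATGCAAA, and it occurred in 5 of the 23 other T2Rs with a window (21.7%), in 69 of 940 windows of Olfr genes (7.34%) and in 1241 of 27025 genes (4.59%), counting 1 window per gene. Of the 5 other T2Rs that held it, Tas2r102 and Tas2r107 were from the 20 with a window that follow the proximal genes on chromosome 6. The others were Tas2r118, Tas2r119 and Tas2r134, which are all the T2Rs on the card outside both of these groups. Each had at most 1 well with a Ct. The full octamer ATTTGCAT, which contains the core, was present in Tas2r137, Tas2r108, Tas2r144, Tas2r135 and Tas2r126 (5 of 8), in 2 of the 23 other T2Rs (8.7%) and in 474 genes (1.75%). The overlapping word TTTGCATC was present in 6 of 8, in 1 of 23 (4.35%) and in 231 genes (0.855%). These words were picked after the sequences had been read, so the counts are a description with no test. ATG at the annotated start was checked in the T2R windows only. Windows of Olfr genes and of all genes may thus cover another kind of region. A match is not evidence of a bound site.

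Words known from liver and basal promoters were sought in the same windows. TATAAA, the TATA box core, occurred in Tas2r144 and in none of the others, against 9 of 23 other T2Rs (39.1%) and 14.2% of all genes. GTTAAT, one arm of the HNF1 palindrome, occurred in Tas2r138 and in none of the others, against 4 of 23 (17.4%) and 7.2% of genes. CAAAGTCCA, an HNF4 word, occurred in 0 of the 8 and 0 of the 23, and in 0.477% of genes. These words too were sought on both strands, and a missing match says only that these letters are not in these 300 bases. The T2R windows surround the start codon and may not reach a transcription start. Windows of all genes were not checked for this.

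Whole windows of 3 genes are printed to let the site be seen in place, with TTTGCAT in capitals where it occurs: Tas2r108, which was measured in both livers, Tas2r143, which was measured in both livers and is the single window without the word, and Tas2r139, which holds the word and gave no Ct in any well.
Tas2r108, chr6:40493342-40493641, plus strand: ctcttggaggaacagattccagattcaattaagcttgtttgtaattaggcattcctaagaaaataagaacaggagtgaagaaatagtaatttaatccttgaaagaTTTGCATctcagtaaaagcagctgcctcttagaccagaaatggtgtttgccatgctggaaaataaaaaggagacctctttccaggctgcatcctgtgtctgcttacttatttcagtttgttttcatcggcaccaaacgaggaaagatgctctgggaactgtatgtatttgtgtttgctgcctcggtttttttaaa
Tas2r143, chr6:42399988-42400287, plus strand: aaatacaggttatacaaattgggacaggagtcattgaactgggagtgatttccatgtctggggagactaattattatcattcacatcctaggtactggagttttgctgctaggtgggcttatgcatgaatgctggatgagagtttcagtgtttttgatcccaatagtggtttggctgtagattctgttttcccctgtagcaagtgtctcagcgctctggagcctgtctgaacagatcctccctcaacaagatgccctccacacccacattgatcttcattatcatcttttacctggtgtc
Tas2r139, chr6:42140686-42140985, plus strand: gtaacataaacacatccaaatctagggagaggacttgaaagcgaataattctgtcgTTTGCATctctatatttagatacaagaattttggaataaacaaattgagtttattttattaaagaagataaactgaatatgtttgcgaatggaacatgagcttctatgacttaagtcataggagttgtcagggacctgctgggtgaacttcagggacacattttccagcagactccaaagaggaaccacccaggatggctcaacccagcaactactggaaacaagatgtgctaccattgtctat

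The windows were also compared in pairs for any shared run. The longest run of bases shared by 2 of the 8 windows was 7 to 12 bases over the 28 pairs, with a median of 9. It was 12 bases for Tas2r137 with Tas2r108 and for Tas2r135 with Tas2r126, and both of these runs lie over the TTTGCAT site. Over the 253 pairs of the other T2Rs the longest shared run was 7 to 18 bases, with a median of 8. The map of the sites sets the position of each beside the wells with a Ct.

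**Figure D2:**
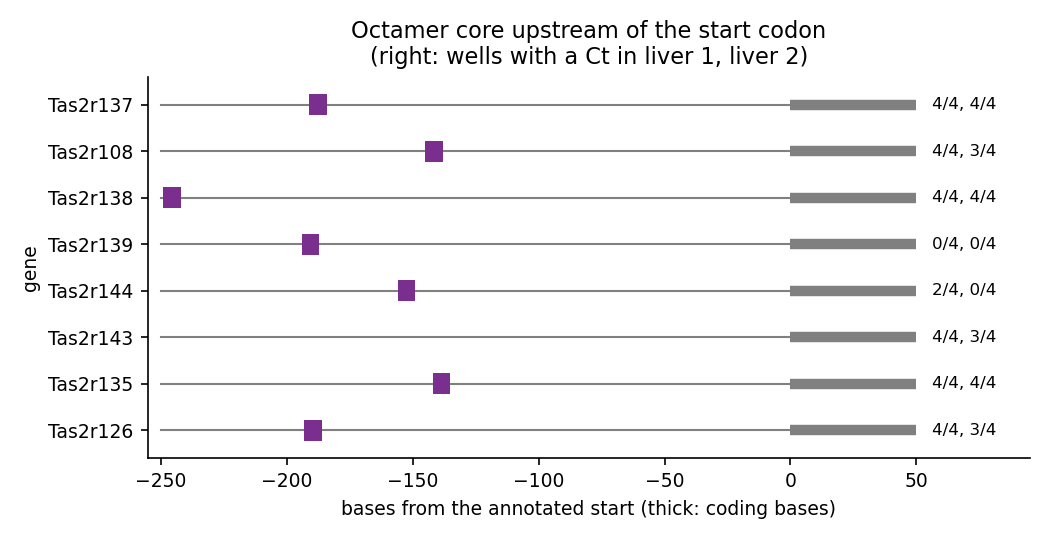
Position of TTTGCAT (purple blocks) relative to the start codon, in bases, in the 300-base window of each of the 8 genes, in chromosome order; the thick grey bar marks coding bases, and the numbers on the right are wells with a Ct of 4 in liver 1 and liver 2. The word stood 142 to 249 bases before the start codon in 7 genes, among them Tas2r139 with 0 wells in both livers, and was absent from the window of Tas2r143, with 4 and 3 wells.

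The pair at the start of the group was among its earliest. Tas2r137 had a Ct in all 8 wells, at 32.1, 32.5, 32.6 and 32.8 in liver 1 and at 32.9, 33.3, 33.5 and 33.5 in liver 2. The wells of the livers did not overlap, with those of liver 2 later. Tas2r108, the denatonium-responsive receptor next to it, read 32.3, 32.3, 32.8 and 32.8 in liver 1 and 32.9, 33.0 and 33.0 in liver 2, with 1 blank well. Here too each well of liver 2 was later than each of liver 1, but by under a cycle.

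The run of 3 genes at the end of the group gave like values for its first 2 genes. Tas2r143 read 32.1, 32.5, 33.0 and 33.0 in liver 1 and 33.0, 33.0 and 33.7 in liver 2, with 1 blank well. Tas2r135, the counterpart of TAS2R60, had a Ct in all 8 wells, at 32.3, 32.5, 32.7 and 32.7 in liver 1 and 32.8, 33.0, 33.0 and 33.4 in liver 2. The last well of Tas2r143 in liver 1 (32.9626) and its first in liver 2 (32.9636) nearly met. For both genes the wells of liver 2 lay past those of liver 1, by a margin that was narrow beside the SD between wells (0.398 and 0.410 cycles for Tas2r143 in liver 1 and liver 2, 0.186 and 0.272 cycles for Tas2r135).

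Tas2r126, the last gene of the run and the counterpart of TAS2R41, came later than its neighbours. Its wells read 32.9, 34.1, 34.2 and 34.4 in liver 1 and 34.51, 34.96 and 34.97 in liver 2, with 1 blank well. The first well of liver 1 stood apart from the other 3 by more than a cycle, and the SD between wells there was 0.712 cycles.

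Tas2r138, the counterpart of the phenylthiocarbamide receptor, was the latest of the 6 genes and still had a Ct in all 8 wells. They read 34.7, 34.9, 35.3 and 35.4 in liver 1 and 35.5, 35.7, 36.2 and 37.0 in liver 2. Its SD between wells was 0.368 in liver 1 and 0.651 in liver 2, and the wells of the livers did not overlap.

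The adjacent pair in the middle of the group, Tas2r139 and Tas2r144, did not meet the rule. Tas2r139 had no Ct: in liver 1, 1 well was marked undetermined and 3 were blank, and in liver 2 all 4 were blank. Tas2r144 had 2 wells in liver 1, at 33.8 and 37.1, and 4 blank wells in liver 2. The wells of Tas2r144 were 3.23 cycles apart, so its mean of 35.4 ± 2.28 (SD between wells) in liver 1 places it neither with the early genes nor with the late ones. A well without a Ct sets no level, since no rule for blank wells was given and 1 Gapdh well of liver 2 was blank too.

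**Figure D3:**
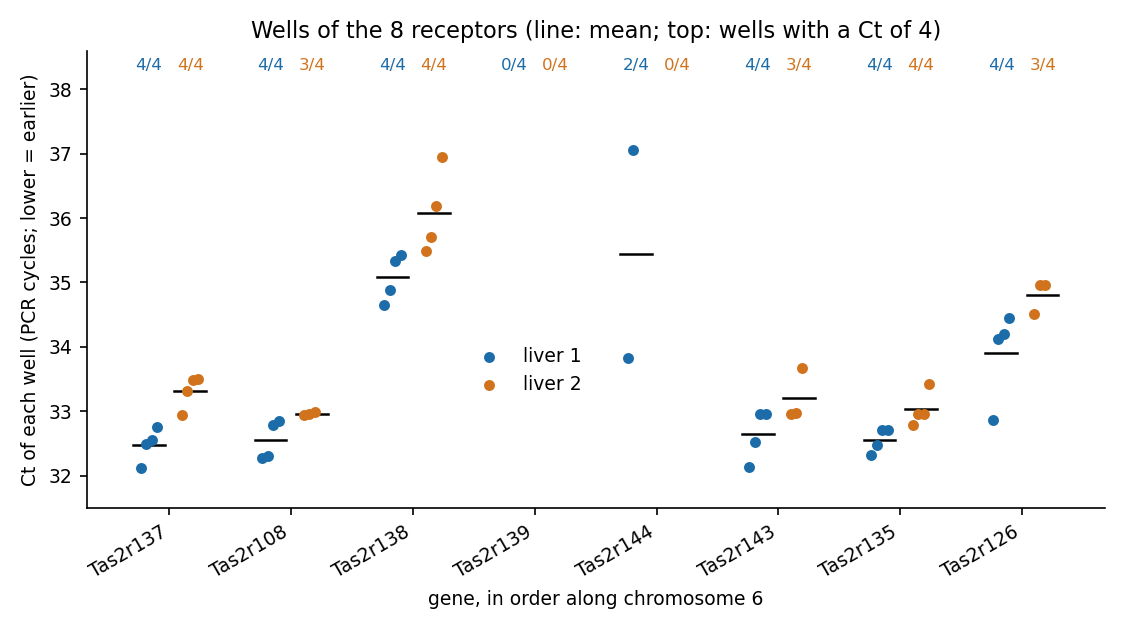
Ct of every well (points, in PCR cycles, lower meaning more template) for the 8 genes in chromosome order, in liver 1 (blue) and liver 2 (orange), with the mean as a line and the number of wells with a Ct of 4 at the top. Tas2r137, Tas2r108, Tas2r143 and Tas2r135 lie between 32.1 and 33.7 in both livers, the means of Tas2r126 and Tas2r138 lie later (1 well of Tas2r126 in liver 1, at 32.9, does not), and Tas2r139 has no point.

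Within a liver, genes can be set against each other without a reference gene, since the same value would be subtracted from each. The order of mean Ct over the livers was Tas2r108 (32.8), Tas2r135 (32.8), Tas2r137 (32.9), Tas2r143 (32.9), Tas2r126 (34.4) and Tas2r138 (35.6). In liver 1 the first 4 genes spanned 0.162 cycles and all 6 spanned 2.60 cycles. In liver 2 the spans were 0.350 and 3.13 cycles. In each liver the first 4 genes thus lay within 0.350 cycles of one another, and the other 2 came more than a cycle after them. The closeness of the first 4 rests on the wells with a Ct. With the other wells set to 40 cycles, Tas2r135 minus Tas2r108 was -0.846 cycles and Tas2r143 minus Tas2r137 was 0.877, as means over the livers.

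Among the first 4 genes, 0 of 6 pairs differed by more than the larger SD between wells in both livers, and 2 of the 6 kept the same sign in both. Tas2r135 minus Tas2r108 was -0.0022 cycles in the first liver and 0.0708 cycles in the other. In liver 2 alone, Tas2r137 was later than Tas2r108 by 0.350 cycles, against a larger SD of 0.260, and later than Tas2r135 by 0.279 cycles, against 0.272. In liver 1 the same differences were -0.0725 and -0.0703 cycles, so the order of these 4 genes was not the same in both livers and is not settled by these wells.

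Tas2r126 and Tas2r138 were separated from the first 4 genes and from each other. All 9 pairs with either of them differed by more than the larger SD between wells in both livers, in the same direction, by 1.17 to 2.60 cycles in the first liver and by 1.27 to 3.13 cycles in the other. In 8 of the 9 pairs the wells did not overlap in either liver. The exception was Tas2r126 with Tas2r143 in liver 1, where the Tas2r126 well at 32.9 fell among those of Tas2r143.

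Set against Tas2r108, Tas2r126 was later by 1.35 cycles in the first liver and by 1.85 in the other, a mean of 1.60 cycles, which would be 3.04-fold less template if every cycle doubled the product and both assays were equally efficient. Tas2r138 was later by 2.52 and 3.13 cycles, a mean of 2.83 cycles or 7.09-fold on the same assumption. With wells without a Ct set to 40, a setting chosen for this pair after the data were seen, it was 1.95 cycles or 3.85-fold, as the blank Tas2r108 well of liver 2 moves. From Tas2r126 to Tas2r138 the distance was 1.17 and 1.27 cycles, a mean of 1.22 cycles or 2.33-fold. That mean was 0.574 cycles with wells without a Ct set to 40, which moves the blank Tas2r126 well of liver 2. The efficiencies of the assays were not measured here, so the folds carry that assumption, and the order of levels between genes rests on it.

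**Figure D4:**
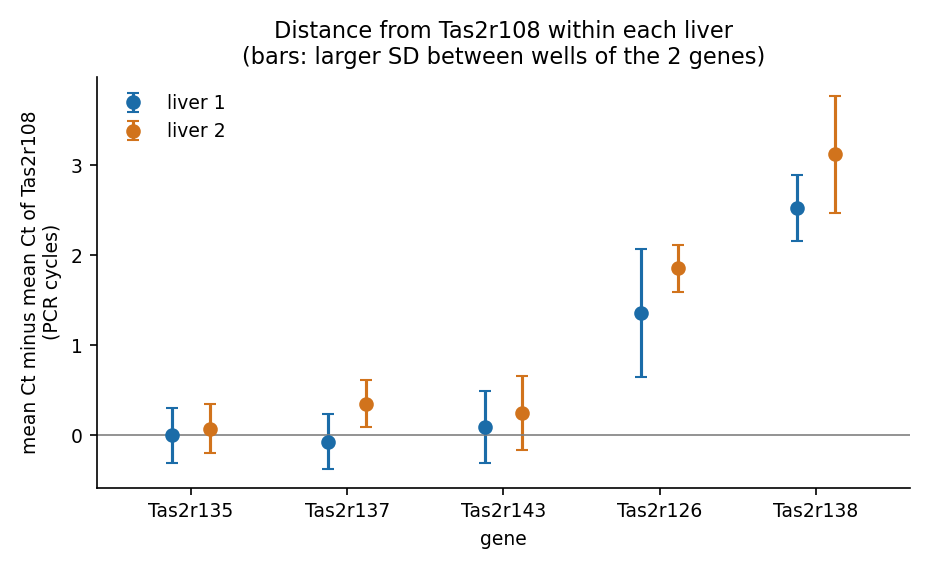
Mean Ct of each gene minus that of Tas2r108 in the same liver, in PCR cycles, in liver 1 (blue) and liver 2 (orange); bars are the larger of the SDs between wells of both genes. Tas2r135, Tas2r137 and Tas2r143 sit within 0.350 cycles of 0, Tas2r126 at 1.35 and 1.85 cycles and Tas2r138 at 2.52 and 3.13 cycles.

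Relative to 18S, the ribosomal RNA used as the endogenous control, ΔCt was 24.8 ± 1.33 cycles for Tas2r108, 24.8 ± 1.28 for Tas2r135, 24.9 ± 1.03 for Tas2r137 and 24.9 ± 1.22 for Tas2r143 (mean ± SD between livers, n = 2). It was 26.4 ± 0.974 cycles for Tas2r126 and 27.6 ± 0.903 cycles for Tas2r138. Liver by liver, the 6 genes ran from 25.6 (Tas2r137) to 28.2 (Tas2r138) in liver 1 and from 23.8 (Tas2r108) to 27.0 (Tas2r138) in liver 2. For Tas2r144, ΔCt was 28.6 cycles in liver 1 alone. The SD between livers was larger than the differences among the first 4 genes, and it held a shift of 18S itself, which read 6.83 ± 0.261 in liver 1 and 9.11 ± 0.247 in liver 2 (SD between 4 wells).

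Relative to Gapdh, a glycolytic enzyme used as the second housekeeping gene, the same genes were at 13.3 ± 0.0481 cycles (Tas2r108), 13.3 ± 0.00352 (Tas2r135), 13.4 ± 0.251 (Tas2r137), 13.5 ± 0.0596 (Tas2r143), 14.9 ± 0.305 (Tas2r126) and 16.1 ± 0.377 (Tas2r138). If every cycle doubled the product, these distances would put the 6 receptors 10021-fold to 71023-fold under Gapdh. With Gapdh the SD between livers of Tas2r126 and Tas2r138 was smaller than their distance from the first 4 genes, which stood within 0.166 cycles of one another.

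The livers differed in the same direction for all 6 genes in raw Ct, with liver 2 later by 0.407 cycles (Tas2r108), 0.480 (Tas2r135), 0.559 (Tas2r143), 0.830 (Tas2r137), 0.907 (Tas2r126) and 1.01 (Tas2r138), a median of 0.694. In the other 9 receptors measured in both livers the median was 0.771 cycles (0.294 to 1.51), so the proximal T2Rs did not stand apart from them. The 18S Ct rose by 2.28 cycles from liver 1 to liver 2, and the Gapdh Ct by 0.475 cycles. With 18S as the reference, ΔCt was therefore lower in liver 2 for all 6 genes, by a median of 1.59 cycles (1.28 to 1.88). With Gapdh the median difference, taken as liver 1 minus liver 2, came to -0.219 cycles (-0.533 to 0.068), with 5 genes lower in liver 1 and Tas2r108 lower in liver 2. The direction of the difference between the livers turned with the reference, and with 1 liver on each side there is no test of it.

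**Figure D5:**
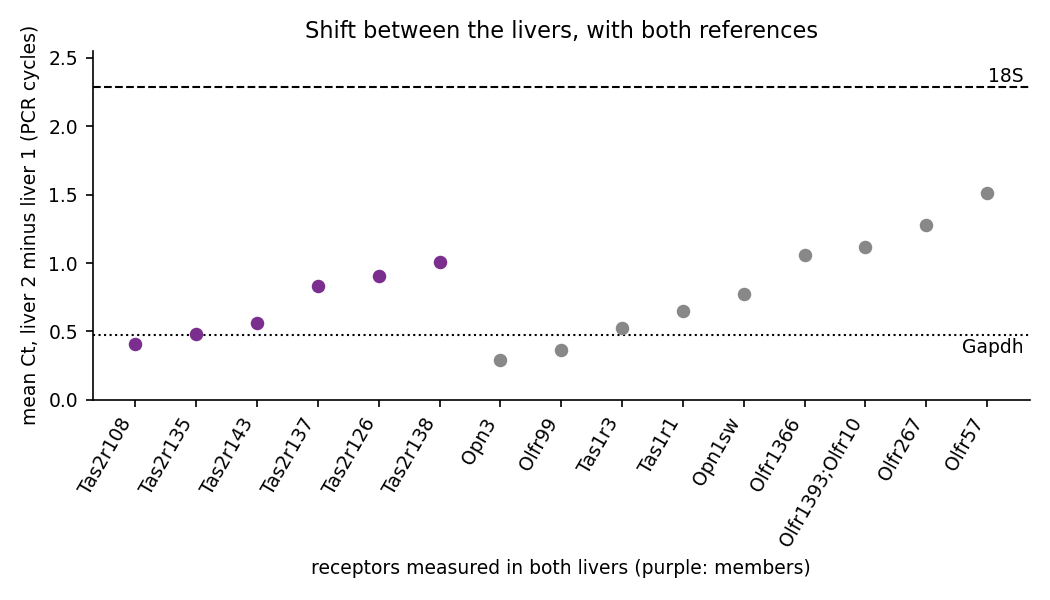
Mean Ct in liver 2 minus liver 1, in PCR cycles, for the 6 proximal T2Rs (purple) and the other 9 receptors (grey) measured in both livers, with the shifts of 18S (dashed) and Gapdh (dotted). The proximal T2Rs lie between 0.407 and 1.01 cycles, inside the range of the grey points and under the 2.28 cycles of 18S.

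For each of the 6 genes the nearest receptor outside the group was sought. By the mean absolute difference in Ct over both livers, among the 9 receptors outside the group that were measured in both, the nearest to Tas2r108, Tas2r135 and Tas2r137 was the olfactory receptor assay Olfr1393;Olfr10 (31.7 in liver 1 and 32.9 in liver 2), at 0.466, 0.500 and 0.605 cycles. The nearest to Tas2r143 was Opn1sw, the short-wave cone opsin, at 0.625 cycles. The nearest to Tas2r126 was Olfr1366, at 0.574 cycles, and to Tas2r138 it was Tas1r1, a subunit of the umami receptor, at 0.529 cycles. Nearest does not mean alike: these distances are larger than most SDs between wells of the T2Rs, rest on 2 livers and assume equally efficient assays.

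Of 15 genes listed for bitter signalling and receptor transport, 4 had a mouse assay on the card. Gnat3, the α subunit of gustducin, had a Ct in 4 wells of liver 1, at 34.25, 34.98, 35.71 and 36.96, and in none of liver 2. Its mean in liver 1, 35.5 ± 1.16 (SD between wells), was close to that of Tas2r138 and later than that of the other 5 genes. The transporters Rtp1 and Rtp2, which bring odorant receptors to the cell surface, had no Ct in either liver, and Rtp3, a liver-expressed member of their family reported to promote the surface expression of bitter receptors, read 24.6 in liver 1 and 24.9 in liver 2. Rtp3 and Gnat3 were also the only 2 of 21 listed cell type markers on the card, so the tissue could be checked against Rtp3 alone among the hepatocyte markers, and the cells that hold the receptor RNA were not assessed.

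All 8 proximal assays are of the type whose primers and probe lie within 1 exon, as the genes have a single coding exon, and such an assay reads genomic DNA as well as cDNA. The labels give a DNase I digestion of the RNA, and no wells without reverse transcriptase were analysed here, so a part of genomic DNA in these Ct values was not tested. The same type was used for 33 of the 35 T2Rs, of which 17 gave no Ct in either liver and 27 gave none in liver 2. Over all 87 receptors it was used for 72, of which 28 gave no Ct in either liver. These counts are not a test for genomic DNA. The sequences of the assay primers were not used here, so whether an assay reads more than 1 T2R was not tested.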

How the data were processed

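Whole liver cDNA of 2 male C57BL6 mice was run by the authors on TaqMan array cards with a real-time PCR system and its SDS software. The authors deposited raw Ct values, counted in PCR cycles, as 1 column per liver with 4 wells for each of 96 assays, whereas the methods describe triplicates. Both columns carry the name of a liver, and 0 columns of sample values were left unused. Wells are sorted by value within an assay, so they are not paired between genes. Blank and undetermined wells were both treated as wells without a Ct. Threshold, baseline and software version are not given in the sources used here.

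The mean of the wells with a Ct was taken in each liver, and ΔCt was this mean minus that of 18S (or Gapdh) in the same liver, averaged over the livers with its SD. A gene was counted as measured with at least 2 wells in each liver. Differences between genes were taken within each liver and set beside the larger SD between wells. No p-value was computed, since wells are technical repeats and n is 2 livers, which limits the precision. The genes named were the 8 T2Rs, 18S, Gapdh, other T2Rs with at least 2 wells in a liver, the nearest other receptor to each gene and listed signalling, transport and marker genes. Tas2r102, Tas2r107, Tas2r118, Tas2r119, Tas2r134, Olfr57, Olfr558, Olfr691 and Tas1r2 fall outside this rule and were named after their values or windows were seen. The members and lists were chosen with earlier results of these data known, and the sequence words after the sequences were read. Upstream windows, gene order and gene types came from RefSeq (GRCm38.p6), with symbols matched for 8 of 8 genes and windows for 31 of 35 T2Rs. Alternatives were other well rules, a Ct limit of 35, the median or linear mean of wells, missing wells set to 40 cycles, Gapdh, and each liver left out. The steps were tested on simulated data. Python 3.11.15, NumPy 2.4.6, pandas 2.3.3 and Matplotlib 3.10.9 were used.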

Additional observations from a re-analysis of the deposited data

How the results depend on the processing

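The count of 6 proximal T2Rs measured in both livers was the same with at least 1 or at least 3 wells per liver. It fell to 5 with wells under a Ct of 35 (without Tas2r138) and to 3 with all 4 wells (Tas2r137, Tas2r138 and Tas2r135). It was 6 to 7 with a liver left out. Over all 87 receptors, 15 (17.2%) met the main rule. With 1 well per liver Olfr558, Olfr691 and Tas1r2 joined these, and with 3 wells Olfr57 and Tas1r1 dropped out. Under a Ct of 35, Olfr57, Tas1r1 and Olfr1366 dropped out. Of the 27 other T2Rs, 0 met the rule in each of these settings. With all 4 wells, 8 of all 87 receptors (9.2%) and 0 of the 27 other T2Rs met the rule. In liver 1 alone 35 of all 87 receptors (40.2%) had at least 2 wells, and in liver 2 alone 15 (17.2%). The count of other T2Rs rose from 0 to 1 (Tas2r106) with 2 wells in 1 of the 2 livers and was 0 to 1 with a liver left out. The median ΔCt of 24.9 cycles became 13.4 with Gapdh. The median difference between the livers of 1.59 cycles became 0.697 when missing wells were set to 40 cycles and reversed to -0.219 with Gapdh. With wells set to 40 cycles, Tas2r135 minus Tas2r108 went from 0.0343 to -0.846 cycles, and Tas2r143 minus Tas2r137 from 0.027 to 0.877. This setting moves the genes with a blank well by construction. Tas2r138 minus Tas2r126 went from 1.22 to 0.574 cycles and Tas2r126 minus Tas2r143 from 1.44 to 1.24 under this setting. As means over the livers, both kept their direction under each alternative run. In liver 2 alone, Tas2r138 did not stay later than Tas2r126 with 40 cycles. ΔCt of the 6 genes stayed within the SD between livers under the median, the linear mean and 40 cycles. That of Tas2r144, which has only an SD between wells, went from 28.6 to 30.9 with 40 cycles. Wells could not be paired between genes because they are sorted within each column. Genes were compared within each liver, in a single group of 2 livers. Late Ct values, n = 2 livers and unexplained blank wells limit all values, and sequencing depth does not apply.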

Other observations

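The Ct values of the proximal T2Rs in liver 2 were not spread evenly within a cycle. In liver 2, 11 of their 21 wells (52.4%) had a Ct whose fractional part was 0.9 or above, as for the 3 wells of Tas2r108 at 32.9 to 33.0, against 2 of 26 wells (7.69%) in liver 1. Among the other T2Rs it was 9 of 12 wells (75%), all in liver 1. Over all receptors outside the group it was 43 of 113 wells (38.1%) in liver 1 and 12 of 33 (36.4%) in liver 2. For 18S, Gapdh and Rtp3 it was 0 of 12 wells in liver 1 and 2 of 11 wells (18.2%) in liver 2. The small SD between wells of Tas2r108 in liver 2, 0.023 cycles, came from 3 such wells. The part of the instrument's readout in this was not tested.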
